A study of Homo sapiens with 8 samples.

Results

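The enzymes of de novo purine synthesis were followed as 10 genes, namely the 6 that build inosine monophosphate (IMP), PPAT, GART, PFAS, PAICS, ADSL and ATIC, and the 4 that turn IMP into GMP or AMP, IMPDH1, IMPDH2, GMPS and ADSS2. They were taken by gene symbol from a deposited table of 61806 genes, in which each of the 10 was found once. The 8 mRNA libraries come from N/TERT-1, human epidermal keratinocytes that were immortalized and carry a wild-type genotype, grown in serum-free keratinocyte medium with epidermal growth factor and bovine pituitary extract. Of these libraries, 4 received the solvent ethanol and 4 received O/A, a pair of inhibitors in which oligomycin blocks the mitochondrial ATP synthase and antimycin A blocks complex III of the respiratory chain. The legends of the source publication give a dose of 10 µM for oligomycin, a dose of 4 µM for antimycin A and a treatment of 4 hours, and the labels give neither dose nor time. The libraries are bulk mRNA of a single cell line, so a smaller number of cells that make a transcript and less transcript per cell cannot be told apart.

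Cells make purine nucleotides on a ribose phosphate in a chain of cytosolic reactions that consume ATP, glutamine, glycine, aspartate, carbon dioxide and formyl groups carried by folate. The chain ends at IMP, from which one branch leads to GMP and the other to AMP. Growing cells draw on this route together with salvage, in which free purine bases are recycled. The formyl groups are largely made from serine through folate enzymes of mitochondria and cytosol, so mitochondria take part in supplying the pathway.

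Ethanol libraries held 17210404 to 20999927 counts and O/A libraries 17689760 to 19263046. All 5 keratinocyte markers (KRT5, KRT14, TP63, ITGA6 and COL17A1) were expressed, at a summed 2710 to 2970 FPKM in ethanol and 2340 to 2490 in O/A, and KRT5 passed the thresholds below in the lower direction. Fibroblast markers summed to at most 2.94 FPKM, melanocyte markers to at most 0.66 and leukocyte markers to at most 1.19 in any library. Most of the fibroblast sum was COL1A1, with a mean of 2.64 FPKM in ethanol and 2.46 in O/A. It held up to 557 counts in a library and was not called. CD68 was called higher, with at most 33 counts in any library. Of the melanocyte markers, MLANA and TYR had no read in any library, DCT had at most 4 counts and PMEL at most 45. The part of these markers in the results was not tested.

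The comparison of O/A with ethanol used edgeR's quasi-likelihood test on 14893 genes, those with 10 counts or more in 4 or more libraries, and all 10 enzymes were among them. Values per library are given as CPM (counts scaled to a common library total) after TMM scaling, which corrects that total for composition. A gene was called when its adjusted p-value (Benjamini-Hochberg, over all genes tested) was at most 0.05 and its log2 fold change, log2(FC), was above 0.25 in size. Under this rule 3 of the 10 enzymes were called lower in O/A, PPAT, PFAS and IMPDH1, against a background of 18.9% of all genes tested called lower and 34.7% called in either direction. By edgeR 0 were called higher, where 15.8% of all genes tested were; DESeq2 and limma also called 0 higher, and 1 enzyme was higher at an unadjusted p under 0.05. On the adjusted p-value alone, 8 of the 10 were lower (27.7% of all genes tested) and 1, GART, was higher (26.0% of all genes tested), and IMPDH2 did not pass. GMPS, one of the 8, had an adjusted p of 0.0483 and lost it in 10 of 15 alternatives of scaling, tool, filter or libraries, which leaves 7 lower. The median log2(FC) of the 10 enzymes was -0.17, beside -0.0004 over all genes tested. The libraries of the 2 conditions did not overlap for 8 of the 10, 7 lower (24.8% of all genes tested) and 1 higher (22.8%), where this held in either direction for 47.6% of all genes tested.

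PPAT, the amidotransferase that commits ribose phosphate to the pathway and is inhibited by its end products AMP and GMP, fell in O/A. It had 50.0, 49.2, 50.9 and 48.0 CPM in ethanol replicates 1 to 4, and 35.0, 36.4, 35.4 and 33.1 CPM in O/A replicates 1 to 4. Every O/A library was below every ethanol library. PPAT had the lowest log2(FC) of the 10, -0.50 (standard error 0.046, 95% interval -0.59 to -0.41), a change of -29.3%. The edgeR quasi-likelihood test gave an adjusted p of 1.81e-13. PPAT (ENSG00000128059) lies on the minus strand of chromosome 4 of GRCh38 from 56393362 to 56435615 and held 576 to 1021 counts per library. In the GENCODE annotation 121 of its exonic bases lie opposite an exon of an antisense gene. Of all genes tested, 10.7% had a lower log2(FC).

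GART carries 3 enzymatic activities in a single polypeptide, one of which takes a formyl group from folate. It was the only member with a higher value and an adjusted p-value within 0.05. It had 183, 179, 176 and 173 CPM in ethanol replicates 1 to 4, and 199, 191, 193 and 186 CPM in O/A replicates 1 to 4. The lowest O/A library (186) was just above the highest ethanol library (183). GART had a log2(FC) of 0.12 (standard error 0.029, 95% interval 0.06 to 0.17, edgeR adjusted p = 0.000629), within the fold threshold. With limma log2(FC) was 0.043 on quantile-normalized CPM (adjusted p = 0.208) and 0.07 on log2(FPKM + 0.1) (adjusted p = 0.0703), while edgeR with median-ratio scaling gave 0.12 (adjusted p = 0.000353). GART (ENSG00000159131) lies on the minus strand of chromosome 21 from 33503931 to 33543491.

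PFAS, which uses glutamine and ATP in the next amidation of the chain, also fell. It had 31.2, 34.2, 32.0 and 35.6 CPM in ethanol replicates 1 to 4, and 25.0, 26.3, 24.2 and 25.7 CPM in O/A replicates 1 to 4. The groups did not overlap, although PFAS varied most among the members within ethanol, with a coefficient of variation of 6.15%. The log2(FC) of -0.40 (95% interval -0.51 to -0.29, standard error 0.055) had an edgeR adjusted p of 1.92e-08. PFAS (ENSG00000178921) lies on the plus strand of chromosome 17 from 8247618 to 8270491. PPAT and PFAS, the enzymes of the chain to IMP that use glutamine as the nitrogen donor, were called lower, as were 18.9% of all genes tested. IMPDH1, of the GMP branch, was called lower too, and a part of glutamine use was not tested. GMPS, the glutamine-using enzyme of the GMP branch, was not called.

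PAICS, ADSL and ATIC carry the chain on to IMP and were lower within the fold threshold. PAICS, which adds the carboxyl group and then aspartate, had 286 to 298 CPM in ethanol and 264 to 273 in O/A. The log2(FC) of PAICS was -0.14 (edgeR adjusted p = 1.42e-05, standard error 0.026). ATIC, which adds the last formyl group and closes the ring, had 118 to 123 CPM in ethanol and 110 to 114 in O/A (log2(FC) -0.11, edgeR adjusted p = 0.00298). PAICS (ENSG00000128050) lies on the plus strand of chromosome 4 from 56435741 to 56464578, and ATIC (ENSG00000138363) on the plus strand of chromosome 2 from 215311956 to 215349773. In both genes the groups were separate with a difference under 10% of the ethanol level.

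ADSL releases fumarate in the chain to IMP and again in the branch to AMP. It had 25.0 to 26.7 CPM in ethanol and 20.9 to 23.0 in O/A, so the groups did not overlap. The log2(FC) of ADSL was -0.24 (95% interval -0.35 to -0.12, edgeR adjusted p = 0.000463), just within the fold threshold. Without O/A replicate 1 it was -0.25 and past the threshold. A readthrough gene on the same strand, ENSG00000284431, covers 1344 exonic bases of ADSL, among them 30.6% of its MANE Select transcript in the GENCODE annotation, and read pairs there could have been assigned to either gene or to none. The level of ADSL is uncertain for that reason. ADSL (ENSG00000239900) lies on the plus strand of chromosome 22 from 40346461 to 40390463.

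**Figure D1:**
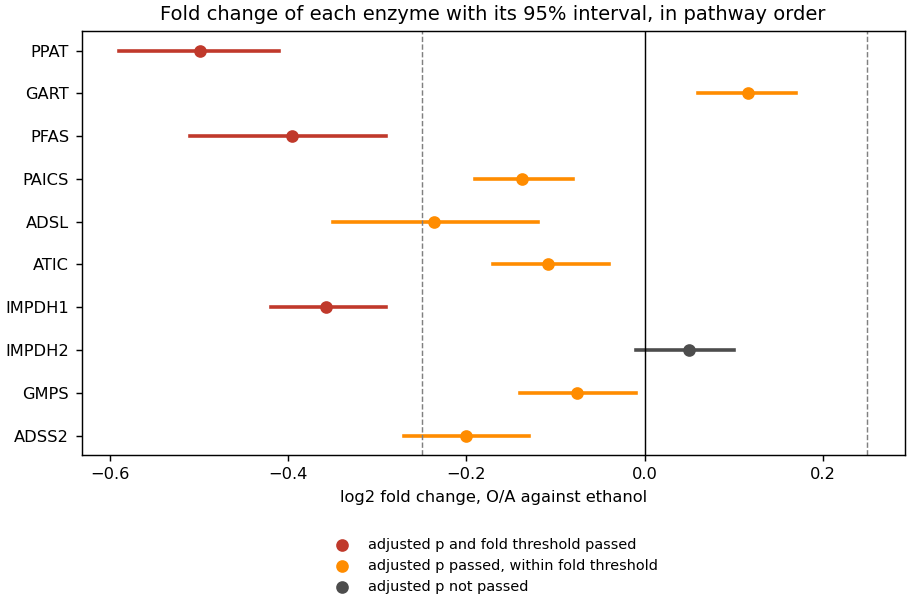
log2(FC) of O/A against ethanol (horizontal axis) for each enzyme in pathway order, with the 95% interval as a line; dashed lines mark the fold threshold of 0.25 in either direction. PPAT, PFAS and IMPDH1 lie wholly below -0.25, while GART and IMPDH2 are the members with a point above 0 (IMPDH2 lay below 0 under quantile normalization).

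PPAT and PAICS stand head to head on chromosome 4. In the deposited table their starts are 126 bases apart on opposite strands, so a single short stretch lies upstream of both. This stretch is printed because the pair shares it and differed in the size of its change. It is read on the plus strand, the strand of PAICS, at chr4:56435616-56435740, from the RefSeq promoter table of build GRCh38.p14.
PPAT-PAICS gap: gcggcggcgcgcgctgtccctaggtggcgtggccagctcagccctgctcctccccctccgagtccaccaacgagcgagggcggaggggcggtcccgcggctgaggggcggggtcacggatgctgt
G and C made up 76.0% of these 125 bases. PPAT held 16.8, 16.6, 17.2 and 16.8 counts for every 100 counts of PAICS in ethanol replicates 1 to 4, and 13.1, 13.7, 13.4 and 12.1 in O/A replicates 1 to 4. The ratio was lower in every O/A library than in any ethanol library. Their 95% intervals of log2(FC) were -0.59 to -0.41 for PPAT and -0.19 to -0.08 for PAICS.

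GART and PFAS also have a close neighbour on the opposite strand. SON, a splicing factor gene whose start is 453 bases from that of GART, had 368 to 414 CPM in ethanol and 301 to 327 in O/A and was called lower (log2(FC) -0.29, edgeR adjusted p = 3.37e-07). GART had 41.7 to 47.8 counts per 100 counts of SON in ethanol and 56.9 to 66.3 in O/A. CTC1, a telomere maintenance gene whose start is 440 bases from that of PFAS, had 17.6 to 20.4 CPM in ethanol and 22.2 to 23.5 in O/A and was called higher (log2(FC) 0.26, edgeR adjusted p = 0.000516). GART and PFAS each had an estimate of the opposite sign to that of its divergent neighbour. IMPDH2 has such a neighbour too, ENSG00000272434, with 1 to 5 counts per library and no test. The gene bodies overlap by 454 bases for GART and SON and by 441 for PFAS and CTC1, although the GENCODE exons of these members are not shared with the neighbour. Whether counting used the strand is not given in the sources used here, and reads in an overlap could have been counted on either gene.

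RefSeq promoter windows, 250 bases before to 50 after the start, were found for 8 of the 10 enzymes, and not for ADSL and IMPDH2. For PAICS the RefSeq start is 25234 bases from the start in the deposited table, so its window lies elsewhere in the locus. The starts differ by 1671 bases for PFAS, 599 for GART, 270 for IMPDH1 and 151 for ADSS2. Their windows also leave out the start in the deposited table. Letters known to be bound by factors that act on these genes in other cells were searched on both strands. The E-box CACGTG, the letters that MYC and related factors bind, was found in 2 of the 8 windows, PPAT and ATIC, and in 7.26% of all 35116 windows. The element TGATGNAA of ATF4 and C/EBP factors (3.62% of all windows), the NRF1 core CGCATGCG (2.02%) and the E2F core TTCGCGC (2.24%) were found in none of the 8. The E-box matches are printed on the strand of the gene with 12 bases on either side, in capitals for the match, because no other match to these 4 motifs was found in the members' windows.
PPAT E-box, chr4:56435780-56435809: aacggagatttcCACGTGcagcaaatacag
ATIC E-box, chr2:215312001-215312030: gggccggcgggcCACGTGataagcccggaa
ATIC E-box, chr2:215312076-215312105: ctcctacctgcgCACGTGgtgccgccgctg
The match in the PPAT window starts at position -182 from the RefSeq start of PPAT and falls on bases 52 to 57 downstream of the start of PAICS in the deposited table. The matches of ATIC start at -46 and 29. PPAT was called lower and ATIC was not, and PFAS and IMPDH1, which were called lower, had no match in their windows. A match is only a run of letters and was not tested as a binding site.

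IMP dehydrogenase, the rate-limiting enzyme of the GMP branch, is made from 2 genes, and only IMPDH1 was called. IMPDH1 had 148, 150, 148 and 146 CPM in ethanol replicates 1 to 4, and 119, 111, 111 and 121 CPM in O/A replicates 1 to 4. The groups were far apart, and the O/A libraries spread more (coefficient of variation 4.78%) than the ethanol libraries (1.06%). The log2(FC) of IMPDH1 was -0.36 (95% interval -0.42 to -0.29, standard error 0.032) with an edgeR adjusted p of 7.47e-14. IMPDH1 (ENSG00000106348) lies on the minus strand of chromosome 7 from 128392277 to 128410252, and 10 genes named as its pseudogenes held 2.20% as many counts. The pseudogenes of GMPS, PPAT and PAICS held 0.567%, 0.544% and 0.0604% as many counts as those genes.

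IMPDH2, the isozyme that proliferating cells typically raise, had 216, 210, 221 and 211 CPM in ethanol replicates 1 to 4, and 224, 221, 225 and 218 CPM in O/A replicates 1 to 4. The groups overlapped. IMPDH2 had a log2(FC) of 0.05 (95% interval -0.01 to 0.10, edgeR adjusted p = 0.126), and -0.0093 under quantile normalization. That interval leaves out a fall of the size seen for IMPDH1. Within each library, the log2 ratio of IMPDH1 to IMPDH2 counts was -0.53 ± 0.038 (SD, n = 4) in ethanol and -0.94 ± 0.083 (SD, n = 4) in O/A. The difference of -0.41 (standard error 0.046) had p = 0.0286 in a two-sided exact permutation test, the smallest p that 4 libraries against 4 allow. Of the FPKM of both isozymes, IMPDH1 took 49.1% ± 0.653 in ethanol and 42.1% ± 1.40 in O/A (SD, n = 4). IMPDH2 (ENSG00000178035) lies on the minus strand of chromosome 3 from 49024325 to 49029447.

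**Figure D2:**
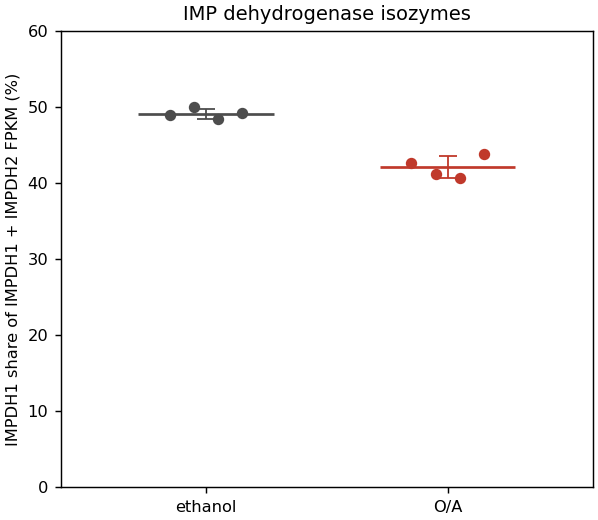
Share of IMPDH1 in the summed FPKM of IMPDH1 and IMPDH2 (vertical axis, percent, from 0) in each library; points are libraries, and the line and bar are the mean and SD (n = 4). The ethanol libraries lie at 48.4 to 50.0% and the O/A libraries at 40.7 to 43.8%. The height of the share depends on the exonic lengths behind FPKM, and it is lower with MANE Select lengths.

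GMPS, which completes GMP, had 128 to 133 CPM in ethanol and 117 to 132 in O/A. The groups overlapped through O/A replicate 2, at 132 CPM, while the other O/A libraries lay at 117 to 124. Its log2(FC) of -0.08 had an adjusted p-value of 0.0483 from edgeR's quasi-likelihood test, and p = 0.114 in the two-sided exact permutation test of 4 libraries against 4. In 7 of 8 fits with a library left out the edgeR adjusted p was above 0.05, up to 0.291 (without O/A replicate 3, log2(FC) -0.046), and it was 0.0111 without O/A replicate 2. It was 0.0751 with median-ratio scaling, 0.0588 with no filter and 0.15 in DESeq2. ADSS2, which joins aspartate to IMP in the first step towards AMP, had 93.9 to 96.9 CPM in ethanol and 79.1 to 84.6 in O/A, with no overlap. The log2(FC) of ADSS2 was -0.20 (95% interval -0.27 to -0.13, edgeR adjusted p = 2.17e-06), within the fold threshold. An annotated gene on the same strand shares 157 exonic bases with ADSS2 and had no count. GMPS (ENSG00000163655) lies on the plus strand of chromosome 3 from 155870650 to 155944020, and ADSS2 (ENSG00000035687) on the minus strand of chromosome 1 from 244408494 to 244451909. For the 8 enzymes without overlap the two-sided exact permutation p was 0.0286, the smallest possible. That p follows from the lack of overlap itself, which 47.6% of all genes tested also showed, so it adds nothing to it.

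Per exonic length, the 10 enzymes spanned a wide range of levels. In ethanol the order by FPKM was IMPDH2 (42.5 ± 1.04, SD, n = 4), IMPDH1 (41.0 ± 0.481), PAICS (39.7 ± 0.816), ATIC (32.4 ± 0.564), ADSS2 (28.1 ± 0.507), GART (23.3 ± 0.521), GMPS (15.1 ± 0.251), PPAT (9.23 ± 0.248), PFAS (5.21 ± 0.318) and ADSL (2.17 ± 0.0591). No neighbours in this order overlapped in their libraries. In O/A the FPKM of PAICS (35.0 ± 0.542, SD, n = 4) was above that of IMPDH1 (31.0 ± 1.46), and that of GART (24.4 ± 0.699) was above that of ADSS2 (23.7 ± 0.760), with overlapping libraries for the latter pair. PPAT and PFAS, both called lower, stood eighth and ninth of the 10 in each condition, at 6.32 ± 0.266 and 3.84 ± 0.146 FPKM in O/A. The exonic size in the table joins all exons of a gene, 12109 bases for ADSL against 4359 in its MANE Select transcript, so the order depends on it. With the MANE Select length in its place, ATIC took the second position in ethanol, IMPDH1 the third, GART the fourth and PAICS the fifth, while PPAT, PFAS and ADSL kept the last 3 positions.

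The genes most like PPAT across the 8 libraries, among 6779 tested genes outside the members with a mean FPKM of at least 5, were SUPT16H (Pearson r of log2 CPM 0.9981), POLR3B (0.9968), LRRC41 (0.9963), CARNMT1 (0.9961) and RIN2 (0.9959). Among the members, ADSS2 (r = 0.98) and ATIC (0.97) were closest to PPAT, and GART (-0.82) and IMPDH2 (-0.64) were farthest. These values describe 8 libraries in 2 conditions, and all genes that differ between the conditions share that split.

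Among the 15 genes of folate one-carbon supply, 14 were tested, 4 were called higher (28.6%, beside 15.8% of all genes tested) and 2 lower (14.3%, beside 18.9%), with a median log2(FC) of 0.02. No share of this or the following lists was tested against all genes. Those called higher are mitochondrial enzymes. MTHFD2, which makes formyl-folate in mitochondria, had 149 to 165 CPM in ethanol and 409 to 429 in O/A (log2(FC) 1.41, edgeR adjusted p = 4.98e-40). ALDH1L2, which oxidizes formyl-folate there, had a log2(FC) of 1.88, SHMT2, which takes the carbon unit from serine, 0.88, and MTHFD2L, a relative of MTHFD2, 0.43. MTHFD1L, which releases formate in mitochondria, was not called (0.04). Of the cytosolic counterparts, ALDH1L1 was not tested, with at most 4 counts in any library, and those below were tested and not called. MTHFD1, the enzyme that charges folate with the formyl group for GART and ATIC, had 136 to 141 CPM in ethanol and 117 to 122 in O/A (log2(FC) -0.22, edgeR adjusted p = 1.66e-08), and SHMT1 had -0.05. Both genes called lower are folate transporters of the cell membrane, SLC46A1 (-0.70) and SLC19A1 (-0.68).

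All 3 genes of serine synthesis, whose product feeds the glycine and formyl groups of the purine ring, were called higher. That is 100%, beside 15.8% of all genes tested, and log2(FC) was 2.23 for PSAT1, 1.74 for PSPH and 1.66 for PHGDH. Of the 4 genes of ribose phosphate (PRPP) supply, neither synthetase was called (PRPS1 0.09, PRPS2 -0.01). Of the associated proteins, which restrain the synthetases, PRPSAP2 had 29.8 to 32.6 CPM in ethanol and 37.6 to 40.2 in O/A and was called higher (log2(FC) 0.30), and PRPSAP1 was called lower (-0.32). Each direction thus held 25% of the 4, beside 15.8% of all genes tested called higher and 18.9% called lower.

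Of the 8 salvage genes 7 were tested, and 0 were called higher by edgeR, where 15.8% of all genes tested were. DGUOK was higher at an unadjusted p under 0.05 and at an edgeR adjusted p of 0.0465, within the fold threshold. In the lower direction 1 gene was called (14.3%, beside 18.9% of all genes tested), and the median log2(FC) was -0.10. That gene was SLC29A1, the main nucleoside carrier of the cell membrane, with 28.8 to 29.8 CPM in ethanol and 18.9 to 22.7 in O/A (log2(FC) -0.46, edgeR adjusted p = 2.64e-09). The enzymes APRT (-0.12), ADK (-0.08), DCK (-0.10) and DGUOK (0.11) were not called. Like DGUOK, ADK (edgeR adjusted p = 0.0473) and DCK (edgeR adjusted p = 0.0404) passed the adjusted p and stayed within the fold threshold. HPRT1, which recycles hypoxanthine and guanine, was not tested, since it had at most 2 counts in any library. A change in it was not detectable.

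Among the 24 genes of purine interconversion and breakdown, 23 were tested, 4 were called higher (17.4%, beside 15.8% of all genes tested) and 3 lower (13%, beside 18.9%), with a median log2(FC) of 0.00. These shares are near those of all genes. The higher ones were GDA, which deaminates guanine (log2(FC) 0.77, from 30.0 to 32.8 CPM in ethanol to 51.2 to 54.8 in O/A), LACC1, a purine nucleoside enzyme (0.71), AK6, an adenylate kinase (0.67), and NT5C3A, a nucleotidase (0.31). AK6 shares its locus with TAF9, so its reads are uncertain. The lower ones were AK4, an adenylate kinase of mitochondria (-0.97, from 99.8 to 105 CPM in ethanol to 50.4 to 52.9 in O/A), AMPD2, which deaminates AMP to IMP (-0.35), and NT5E, the ecto-nucleotidase that makes adenosine (-0.27).

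**Figure D3:**
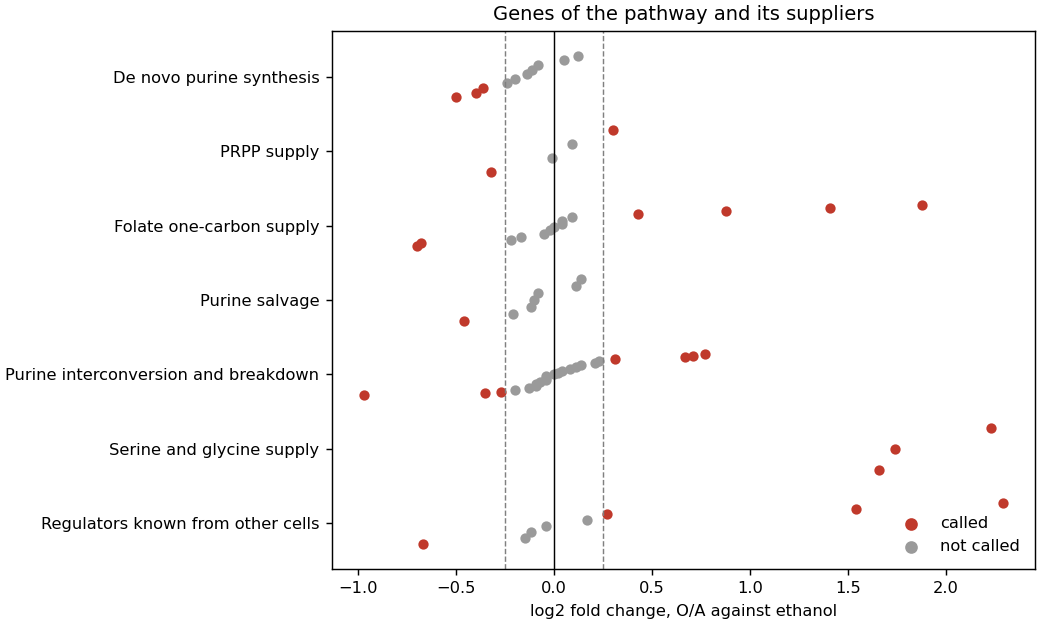
log2(FC) of O/A against ethanol (horizontal axis) of the tested genes in each group (rows); each point is a gene, red where it was called, and dashed lines mark the fold threshold of 0.25. The de novo enzymes lie between -0.50 and 0.12, while serine synthesis genes lie at 1.66 and above and the folate genes spread from -0.70 to 1.88.

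Of 8 regulators known from other cells, all tested, 3 were called higher (37.5%, beside 15.8% of all genes tested). In the lower direction 1 was called (12.5%, beside 18.9%), and the median log2(FC) was 0.07. MYC, a factor that raises transcription of purine enzymes in many growing cells, had 191 to 196 CPM in ethanol and 116 to 125 in O/A and was called lower (log2(FC) -0.67, edgeR adjusted p = 2.57e-25). Its antagonists MXD1 (2.29) and MNT (0.27) were called higher. ATF4, the factor of amino acid stress, had 231 to 248 CPM in ethanol and 683 to 707 in O/A (log2(FC) 1.54, edgeR adjusted p = 2.55e-43). E2F1 (0.17), NRF1 (-0.15), TFAM (-0.12) and MTOR (-0.04) were not called. Whether any of these factors bears on the enzymes was not tested.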

How the data were processed

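mRNA libraries were analysed for 4 ethanol-treated and 4 O/A-treated samples, grouped by the sample titles; dose and time come from the study's legends. Per the labels and methods, the authors selected polyadenylated RNA, sequenced paired ends, aligned reads to GRCh38.p13 with HISAT2 2.0.1 and made the deposited raw count per Ensembl gene with HTSeq 0.6.1; the strand setting is not given in the sources used here. The authors also deposited FPKM values, per exonic gene size and library total. A table of the authors' DESeq2 fold changes and p-values was not used.

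Counts were tested with edgeR 4.0.16 in R 4.3.3 (TMM, robust quasi-likelihood). Single values were compared by exact permutation tests with SciPy 1.17.1. Alternatives were DESeq2 1.42.0, limma 3.58.1 on log2(FPKM + 0.1), log2(FPKM + 1) and quantile-normalized CPM, median-ratio scaling, no filter, a block for the replicate number, leaving out libraries singly, and other fold thresholds. The fits were tested on simulated data. Between replicate libraries the chi-square per degree of freedom was 1.76 to 5.74, above sampling noise, and p-values measure the spread between these samples of a single line, labelled as biological replicates. Counting error is small at these depths except for genes with few reads.

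All 10 members are named; of the gene lists, every gene called is named, with MYC and ATF4. The neighbours are genes whose start lies within 1000 bases on the opposite strand. The members and lists were chosen with earlier results of these data known. For the 20417 rows without a symbol, names came from a reference table by Ensembl ID.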

Additional observations from a re-analysis of the deposited data

Results flagged for a closer look

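Of 22 groups of 4 libraries, 2 held a library at a distance from its group, and about 1.1 such groups would be found by chance. For PAICS this was ethanol replicate 4, with 286 TMM-scaled CPM where the remaining ethanol libraries had 296 to 298. For ADSS2 it was O/A replicate 4, with 79.1 TMM-scaled CPM where the remaining libraries had 84.0 to 84.6.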

How the results depend on the processing

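Of 150 values of log2(FC), for 10 enzymes under 15 alternatives each, 147 kept their direction and their side of the combined rule of adjusted p and fold. The adjusted p alone crossed 0.05 in 14 of the 150, which were 10 for GMPS (lost), 3 for GART (lost, all with limma) and 1 for IMPDH2 (0.0477 without ethanol replicate 3). IMPDH2 turned to -0.0093 under quantile normalization. ADSL passed the thresholds on log2(FPKM + 0.1), at -0.27, and without O/A replicate 1, at -0.25. Across the same alternatives log2(FC) ranged from -0.54 to -0.47 for PPAT, from -0.43 to -0.35 for PFAS and from -0.41 to -0.33 for IMPDH1. With no fold threshold 8 enzymes were called lower, 1 higher and 7999 genes in all, and above a log2(FC) of 1 in size 0 enzymes were called lower and 797 genes were called in all, against 5165. With each library left out, 3 to 4 enzymes were called lower, none higher, and 4945 to 5071 genes in all. The IMPDH1 to IMPDH2 difference lay between -0.44 and -0.38 in those fits, where 3 libraries against 4 allow no exact p under 0.0571. Same-numbered libraries were compared, gene by gene, by their deviations from the mean of their condition. The correlations of these deviations were 0.0389, -0.0021, -0.0226 and 0.0675 for replicates 1 to 4. Pairing by replicate number was thus not seen in these deviations, and the sources do not state it. A replicate block left 3 enzymes called lower and 5160 genes called in all, 5117 of them shared with the fit without it. On log2(FPKM + 0.1) the split of all calls moved to 1945 higher and 3179 lower, from 2350 and 2815. The positions of 5 enzymes in the order of levels in ethanol changed with the MANE Select length, an alternative chosen after seeing the data.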

Other observations

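HPRT1, the salvage enzyme for hypoxanthine and guanine that most cells transcribe, had 5 counts in all 8 libraries together. Its surroundings on the X chromosome were examined after this value was seen. Between MBNL3, which ends at 132489968 and had 267 to 363 counts per library, and RTL8C, which starts at 135032355 and had 510 to 801, lie 53 genes of the deposited table, 14 of them protein-coding. Among these PHF6, GPC4, PABIR2 and MOSPD1 had 0 or 1 count in each library, and the highest count of any protein-coding gene in any library was 10, for RTL8B. Both conditions were alike in this. The cause was not tested.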
